A study of Mus musculus with 13 samples.

Results

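Gene expression in leg muscle of mdx mice was compared with that of control mice at day 7, the earlier of the ages at which the study set the genotypes side by side. The comparison rests on 6 of the 13 arrays of the study, the 3 titled as mdx and the 3 titled as control at day 7, and on all 12422 probe sets that are not array controls. A probe set is a group of short probes that together give 1 reading for a transcript. The other arrays are 3 control and 3 mdx at day 14 and 1 control at day 23, and they enter here to estimate the spread and to ask whether the difference at day 7 is also seen at day 14. The labels call the groups mdx and control and the tissue leg muscle. They give no strain, mdx allele, sex or named muscle, do not say whether the controls share the background of the mdx mice, and do not say whether animals were pooled or each array came from its own animal, so the p-values speak of the spread among these samples only. They give the age as a number of days and do not say from when it is counted.

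The mdx mouse lacks full-length dystrophin and is the most used animal model of Duchenne muscular dystrophy. Dystrophin ties the actin skeleton of the muscle fibre to the basal lamina through dystroglycan, the sarcoglycans, sarcospan, dystrobrevin and the syntrophins. Its absence leaves the membrane fragile, and mdx limb muscle is known for waves of fibre death, inflammation and regeneration that begin at about weaning. In the weeks after birth the fibres are still maturing, embryonic and neonatal isoforms give way to adult ones, and limb muscle lies against bones whose marrow is an active site of blood formation.

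Values are intensities on a linear scale, quantile-normalised over the 13 arrays. The median spread between replicates, as an SD on the log2 scale, was 0.163 in control and 0.187 in mdx at day 7, against 0.327 in control and 0.219 in mdx at day 14. Correlations between pairs of day 7 arrays ran from 0.928 to 0.970, and the medians of their deposited values differed 1.12-fold. The first principal component of the 6 arrays held 34.8% of their variance and set mdx replicate 3, with a score of 28.1, apart from the other 5 arrays. Summed markers of muscle fibres overlapped between the groups, with 126693 to 203067 in control and 145926 to 157934 in mdx, and 0 of the markers of any cell type read 0.

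No probe set passed the test between the genotypes after correction for the number of probe sets tested. With limma on the 12 arrays of the replicated groups, 0 of 7140 probe sets (0%) passed an adjusted p of 0.05 at day 7, and the smallest adjusted p was 0.243. An unadjusted p under 0.05 was reached by 258 probe sets (3.61%). With only the 6 day 7 arrays fitted, which leaves out the wider spread of day 14, that number was 576 (8.07%), again with 0 past the adjustment and a smallest adjusted p of 0.0765. The 3 mdx arrays lay outside the range of the 3 control arrays for 987 probe sets (13.8%), all above it for 482 (6.75%) and all below it for 505 (7.07%). The log2 difference was below 0 for 3493 probe sets (48.9%) and above 0 for 3647. These shares are the background against which the counts in gene lists are given below, and no gene is called changed at day 7 unless a setting is named.

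Probe sets passed under some other settings, and most of those were lower in mdx. When each array was weighted by its estimated quality, limma called 20 probe sets (0.280%), 16 lower and 4 higher in mdx. The 15 lower ones that carry a gene symbol were Car2, Slc4a1, Erdr1, Col11a1, Ckm, Ibsp, Tnc, Snorc, Rhag, Clec11a, Col11a2, Ctsk, Gadd45b, Ngp and Acan, and the higher ones were Per1, F2rl2, Thrsp and Hsph1. Without mdx replicate 2, limma called 12 (0.168%), all lower in mdx: Ngp, Camp, S100a8, S100a9, Mmp9, Mmp13, Ibsp, Ctsk, Slc4a1, Agap1 and 2 probe sets with no symbol listed. Leaving out any other single array gave 0 calls. Mdx replicate 2 was the mdx array nearest to control for Ngp, Camp, S100a8, S100a9, Mmp9, Mmp13, Ibsp, Ctsk and Slc4a1, so leaving it out widened these differences. Only 5 probe sets were called in both settings. Of the 15 genes with the smallest p among those lower in every mdx array, 10 belong to the lists of marrow, red cell or bone genes described below. These lists held 10, 15 and 15 of the 5465 genes tested. They were chosen with earlier results of these data known, so this count is a description and no independent test.

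**Figure D1:**
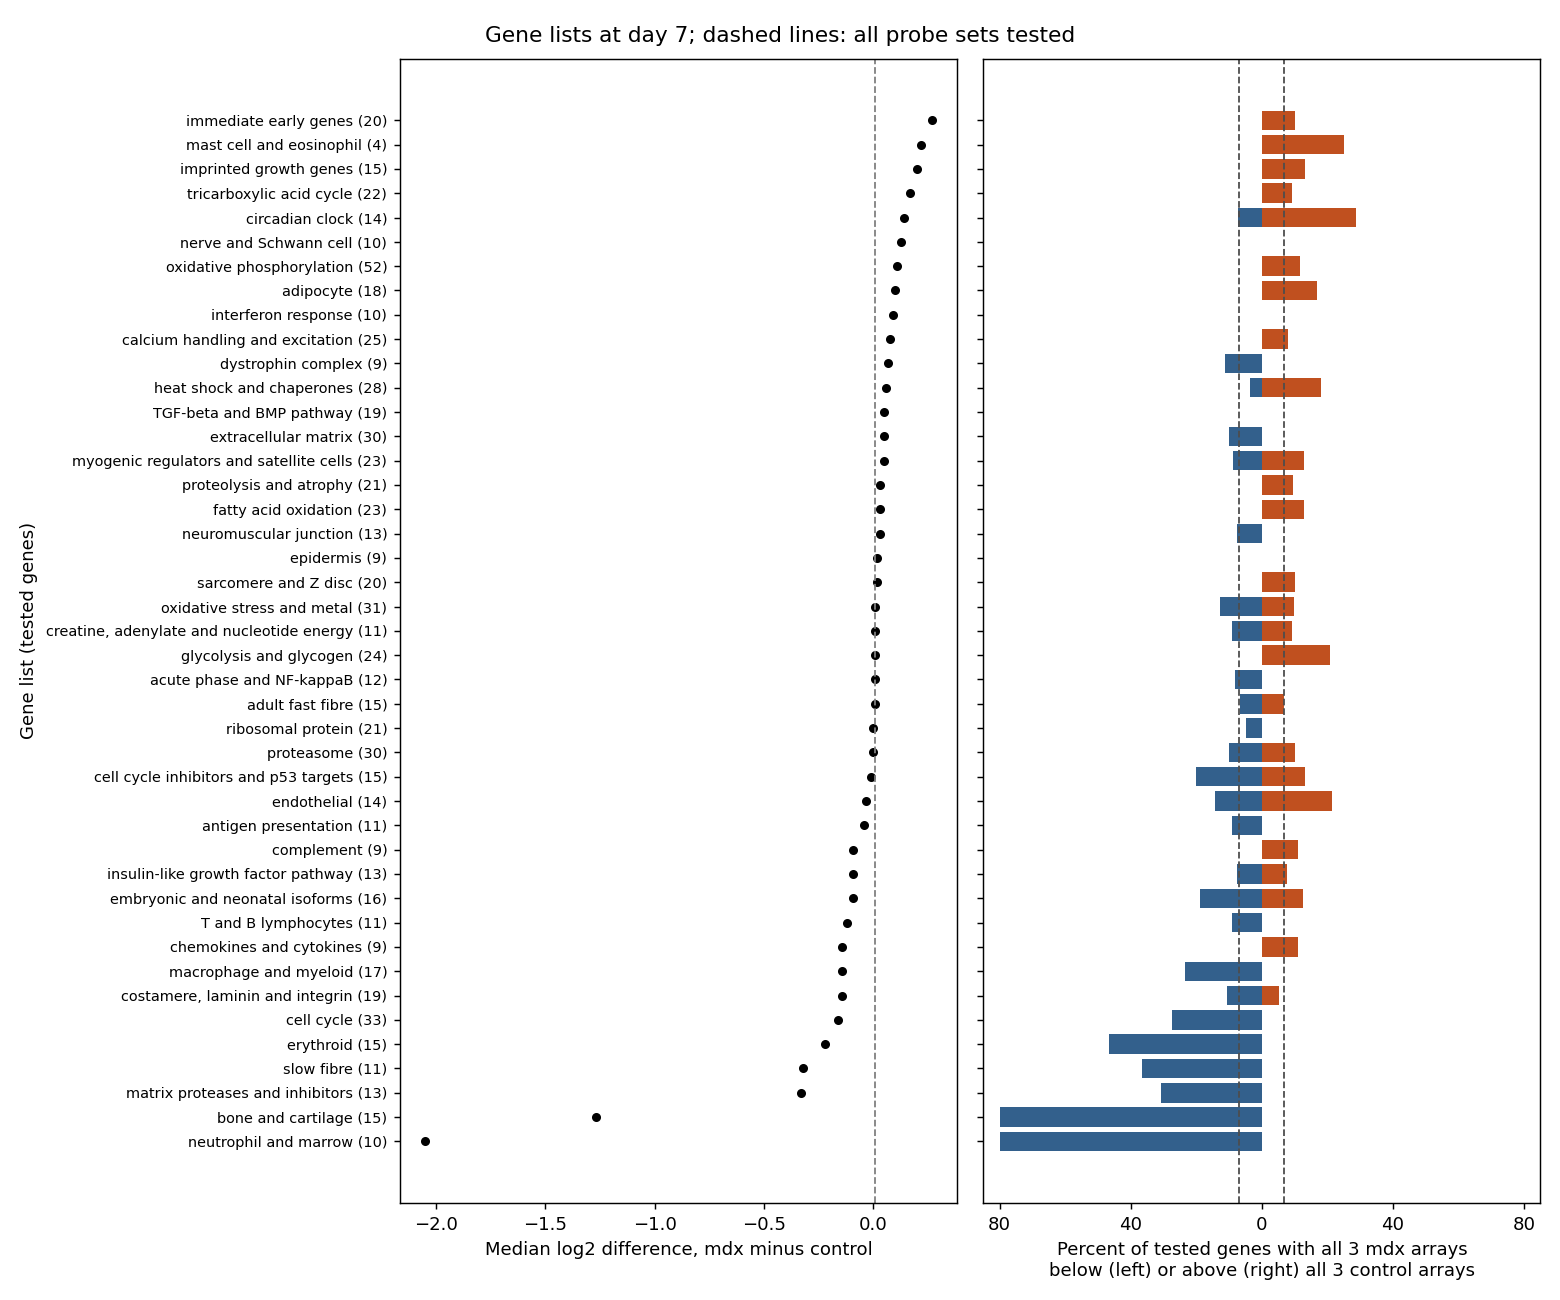
Left, median log2 difference between mdx and control at day 7 for each of 43 gene lists, with the number of tested genes in brackets. Right, percent of the tested genes for which all 3 mdx arrays lay below (blue) or above (orange) all 3 control arrays. Dashed lines give all 7140 probe sets tested, at a median of 0.01, 7.07% lower and 6.75% higher. The neutrophil and marrow list and the bone and cartilage list stand at the bottom with medians of -2.05 and -1.27.

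The dystrophin gene itself read lower in mdx, without passing the test. Dmd read 822, 850 and 865 in the 3 control arrays and 816, 464 and 583 in the 3 mdx arrays. The mdx arrays all lay below control, but mdx replicate 1 missed the lowest control array by only a few units. The mean was 846 ± 21.4 (SD, n = 3) in control and 621 ± 179 in mdx, and the log2 difference of -0.44 (SE 0.30) did not pass (limma adjusted p = 0.998). The classical mdx allele is a point mutation that stops translation, so a probe set can still read the transcript, and its level is no check of the labels. At day 14 the difference was -1.18, and the difference between the ages was 0.74 (SE 0.42, limma adjusted p = 0.583).

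The partners of dystrophin overlapped between the genotypes in every tested case. Of 17 genes in the dystrophin complex list, 14 were on the array and 9 were bright enough to be tested. The median log2 difference of these 9 was 0.07, and 6 were above 0. Dmd was the only one whose groups did not overlap (11.1%, against 7.07% lower over all probe sets). Dag1, which encodes dystroglycan, the laminin receptor of the complex, read 16806, 16287 and 15754 in control and 17516, 17455 and 16242 in mdx, a log2 difference of 0.07 (SE 0.13). Utrn, the dystrophin relative utrophin that can take its place at the membrane, read 1073, 704 and 785 in control and 1058, 890 and 912 in mdx, a difference of 0.17 (SE 0.37). Sspn, sarcospan, read 13544, 13674 and 12974 in control and 14031, 12889 and 9928 in mdx, a difference of -0.14 (SE 0.17), in which mdx replicate 3 alone was low. Cav3, the caveolin of muscle, differed by 0.23 (SE 0.20), and mdx replicate 3 at 22285 was the array that stood apart from the 12323 to 16323 of the others. A second Cav3 probe set differed by -0.22 (SE 0.19). The sarcoglycans Sgca, Sgcb and Sgce differed by 0.04, 0.27 and -0.25, and dystrobrevin Dtna by 0.16. The genes for delta-sarcoglycan, the beta-syntrophins, beta-dystrobrevin and neuronal nitric oxide synthase were on the array but too dim to be tested.

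**Figure D2:**
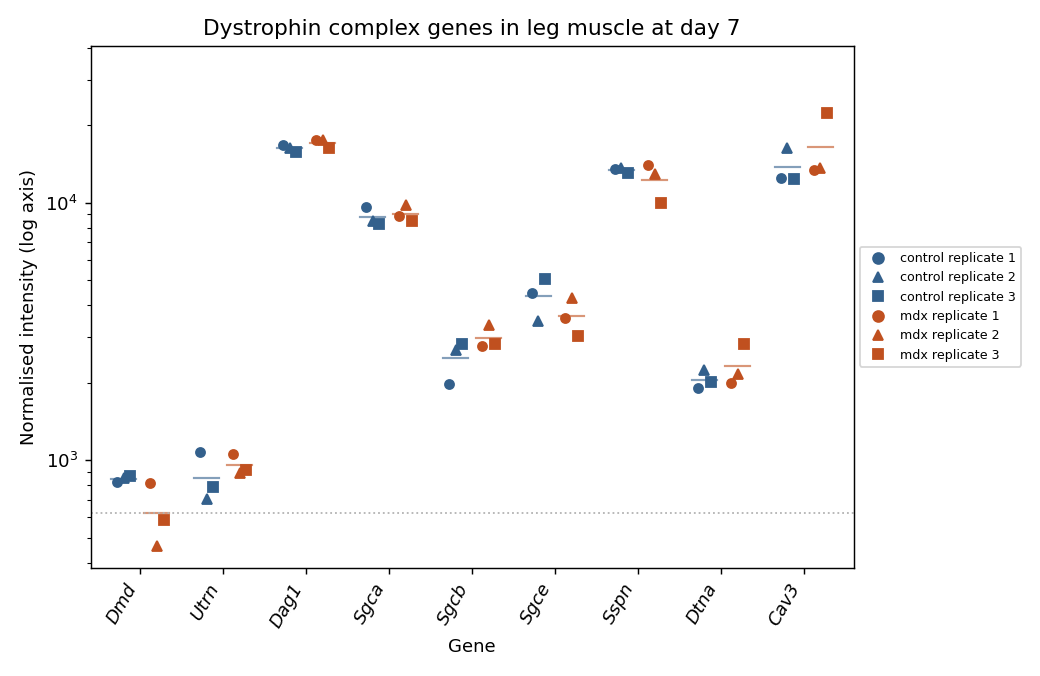
Normalised intensity, on a log axis, of the 9 tested dystrophin complex genes in the 3 control (blue) and 3 mdx (orange) arrays at day 7. Symbols mark the replicate number, short lines the group means, and the dotted line the filter level of 621. The mdx arrays lie below control for Dmd, and the groups overlap for the other 8 genes.

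The widest differences were in genes of neutrophils and their precursors, which are made in bone marrow. Of 18 genes of the neutrophil and marrow list on the array, 10 were bright enough to be tested. Of these, 8 (80%) were lower in all 3 mdx arrays and 0 were higher, against backgrounds of 7.07% and 6.75%. The median log2 difference was -2.05, against 0.01 over all probe sets tested. A gene was tested if it read above 621 on 3 of 12 arrays, which the 3 day 7 control arrays alone could meet. Ngp, for example, read at most 343 at day 14. The share is thus not independent of the filter. Ngp, the neutrophilic granule protein, read 1853, 2336 and 2835 in control and 27.4, 859 and 175 in mdx, -3.14 on the log2 scale (SE 0.62, limma adjusted p = 0.243). Camp, the antimicrobial cathelicidin stored in secondary granules, read 3679, 5808 and 7583 in control and 406, 2520 and 660 in mdx, a difference of -2.53 (SE 0.53). In both genes mdx replicate 2 lay between the other mdx arrays and control. S100a8 and S100a9 encode the subunits of calprotectin, the calcium-binding protein that fills the neutrophil cytosol. S100a8 read 5138, 8277 and 7161 in control and 464, 2419 and 378 in mdx. S100a9 read 2869, 3953 and 4469 in control and 104, 1656 and 206 in mdx. The log2 differences were -3.03 (SE 0.67) and -3.15 (SE 0.82). Mdx replicate 2 was nearest to control in both.

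Mdx replicate 2 was also nearest to control for most other genes of the list. Mmp9, the gelatinase of neutrophils and osteoclasts, read 5989, 7717 and 4424 in control and 63.6, 2757 and 125 in mdx. Its log2 difference was -3.88 (SE 0.99), and the mdx mean of 982 ± 1537 (SD, n = 3) was carried by replicate 2. Mpo, the myeloperoxidase of primary granules, read 863, 877 and 969 in control and 279, 348 and 184 in mdx, a difference of -1.57 (SE 0.54). Ltf, lactoferrin, differed by -1.52 (SE 0.53) and Elane, neutrophil elastase, by -0.66 (SE 0.24). Among the 8 genes, mdx replicate 2 was the highest mdx array for 7, the exception being Elane, at 614, 564 and 561. Lcn2, lipocalin 2, and Csf3r, the receptor for the granulocyte growth factor, overlapped between the groups, with differences of 0.33 and 0.12.

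Promoter windows are shown for the granule and calprotectin genes because their differences were among the widest of the list. RefSeq windows on build GRCm38.p6, 250 bases before to 50 after the start of transcription, were searched on both strands for TTNNGCAA, a simple form of the site of the C/EBP factors that direct granulocyte genes. The windows lie at chr9:110419558-110419857 (plus strand) for Ngp, chr9:109849407-109849706 (minus) for Camp, chr3:90668821-90669120 (plus) for S100a8 and chr3:90695672-90695971 (minus) for S100a9. Capitals mark the matches.
Ngp: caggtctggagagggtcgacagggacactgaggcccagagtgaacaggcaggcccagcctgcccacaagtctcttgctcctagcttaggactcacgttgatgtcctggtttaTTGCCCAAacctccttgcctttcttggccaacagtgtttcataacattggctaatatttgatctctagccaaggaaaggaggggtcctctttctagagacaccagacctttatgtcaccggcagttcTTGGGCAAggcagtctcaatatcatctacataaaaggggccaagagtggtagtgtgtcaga
Camp: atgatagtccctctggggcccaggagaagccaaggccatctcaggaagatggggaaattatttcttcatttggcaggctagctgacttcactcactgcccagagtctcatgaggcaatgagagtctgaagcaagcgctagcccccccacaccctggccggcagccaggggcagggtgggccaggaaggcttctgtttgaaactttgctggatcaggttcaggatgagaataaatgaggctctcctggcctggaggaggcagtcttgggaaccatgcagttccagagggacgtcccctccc
S100a8: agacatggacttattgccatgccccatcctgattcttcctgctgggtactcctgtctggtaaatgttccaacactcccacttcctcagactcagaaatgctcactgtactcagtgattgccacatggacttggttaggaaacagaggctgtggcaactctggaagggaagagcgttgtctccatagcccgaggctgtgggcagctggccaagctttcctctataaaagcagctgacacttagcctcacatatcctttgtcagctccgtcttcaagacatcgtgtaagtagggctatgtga
S100a9: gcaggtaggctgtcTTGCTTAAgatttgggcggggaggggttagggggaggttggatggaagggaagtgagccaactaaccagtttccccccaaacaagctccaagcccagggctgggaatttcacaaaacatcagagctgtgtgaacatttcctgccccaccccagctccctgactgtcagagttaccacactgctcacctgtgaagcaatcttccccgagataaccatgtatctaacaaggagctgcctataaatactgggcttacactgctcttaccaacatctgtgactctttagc
Ngp held 2 matches, beginning 138 and 11 bases before the start site, S100a9 held 1, beginning 236 bases before it, and the windows of Camp and S100a8 held none. Of the 9 tested genes of the list with a window, 4 held a match (44.4%), the others being Ltf and Lcn2, against 3547 of the 32851 windows searched (10.8%). The windows searched did not cover every chromosome. Lcn2 held a match and did not separate the groups, while Camp and S100a8 separated them without one.

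The marrow markers varied with the array and the age. The summed intensity of 11 marker genes of neutrophils and marrow ran from 23230 to 32108 in control and was 3018, 12316 and 3865 in the 3 mdx arrays. Counted over all 11, tested or not, 9 were lower in every mdx array and 0 higher, against 7.07% and 6.75% of all probe sets tested. Lcn2, a tested marker, overlapped between the groups. At day 14 the same sum ran from 5085 to 10376 over both genotypes, and it was 2723 on the day 23 array, so the day 7 control arrays were the high ones. In bulk tissue, fewer cells of a type and less RNA per cell cannot be told apart. Without mdx replicate 2 the list median was -2.69.

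Red cell genes were lower in part. Of 15 tested erythroid genes, 7 were lower in all mdx arrays (46.7%, against 7.07% of all probe sets) and 0 higher, with a median log2 difference of -0.22. The leading genes belong to red cell precursors. Slc4a1, band 3, the anion exchanger of the red cell membrane, read 2147, 1399 and 1865 in control and 481, 880 and 403 in mdx, with a difference of -1.57 on the log2 scale (SE 0.25, limma adjusted p = 0.243), the smallest p at day 7. Car2, the carbonic anhydrase of red cells and osteoclasts, read 4321, 3853 and 4194 in control and 1440, 2171 and 1618 in mdx, a difference of -1.23 (SE 0.25). The 2 groups were well apart for both genes, with control 3.07-fold and 2.37-fold above mdx by the ratio of means. Rhag, the Rh-associated membrane glycoprotein, read 1300, 760 and 1130 in control and 437, 482 and 660 in mdx, a difference of -0.92 (SE 0.25). Klf1, the transcription factor that drives adult globin genes, read 804, 706 and 977 in control and 232, 604 and 456 in mdx, a difference of -0.92 (SE 0.28), and the Rh antigen gene Rhd differed by -1.32 (SE 0.44).

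The globins and the enzymes of haem synthesis had smaller differences. Hbb-b2, an adult beta globin, read 12266, 13456 and 14785 in control and 11824, 10715 and 12081 in mdx, a log2 difference of -0.22 (SE 0.21). Hba-a1, an alpha globin, differed by 0.35 with overlapping groups. Alas2, the first enzyme of haem synthesis in red cells, read 2705, 2259 and 2840 in control and 2000, 2041 and 1563 in mdx, a difference of -0.47 (SE 0.59), while Fech, Cpox, Urod and Uros differed by 0.17, -0.03, -0.20 and -0.01. Second probe sets for Urod and Cpox differed by 0.73 (SE 0.44) and -0.32 (SE 0.26). The transferrin receptor gene Tfrc differed by 0.33 (SE 0.21) on its brighter probe set and by 1.04 (SE 0.60) on the other. Summed red cell markers overlapped: control held 25318 to 51423 and mdx 35154 to 46490. Most of each sum was Hba-a1, at 26951, 20885 and 45553 in control and 38262, 42786 and 32644 in mdx. Of the 5 markers on the array, 3 were lower in all mdx arrays and 0 higher, against 7.07% and 6.75% of all probe sets tested. The 11 tested genes with a RefSeq promoter window had 13 windows; 4 of these (30.8%) held AGATAA, the core of the site of the erythroid GATA factors, on either strand, against 3672 of 32851 windows (11.2%). The 4 were those of Alas2, Cpox, Epor and Rhd.

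Bone and cartilage genes formed the other group of wide differences. Of 15 tested genes, from 23 on the array, 12 were lower in all mdx arrays (80%, against 7.07% of all probe sets) and 0 higher. The median log2 difference was -1.27, and mdx replicate 2 was the highest mdx array for all 12. The limit of the filter given for the marrow list holds here too. Ibsp, bone sialoprotein of the mineralised matrix, read 2930, 4997 and 2365 in control and 163, 1121 and 167 in mdx, a difference of -3.08 (SE 0.60). A second probe set for Ibsp differed by 0.06 (SE 0.30), so the gene has no single answer on this array. Dmp1, a matrix protein of osteocytes, read 1009, 1213 and 849 in control and 29.6, 499 and 241 in mdx, a difference of -2.11 (SE 0.54). Alpl, the alkaline phosphatase of mineralising cells, read 1406, 1772 and 1447 in control and 394, 745 and 410 in mdx, a difference of -1.52 (SE 0.45). Each of these separated the groups, with the same mdx array nearest to control.

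Genes of bone resorption and of cartilage behaved likewise. Acp5, the tartrate-resistant phosphatase of osteoclasts, read 3887, 5713 and 3097 in control and 509, 1898 and 286 in mdx, a log2 difference of -2.51 (SE 0.75). Ctsk, the collagen-cleaving cathepsin of osteoclasts, read 5116, 8187 and 4483 in control and 1885, 3456 and 1793 in mdx, a difference of -1.31 (SE 0.27). Mmp13, the collagenase of hypertrophic cartilage and bone, read 2850, 4863 and 2350 in control and 158, 1284 and 123 in mdx, a difference of -3.10 (SE 0.74). In all 3 genes control replicate 2 and mdx replicate 2 were the highest arrays of their groups. Among cartilage collagens, Col11a1 read 2162, 2421 and 2268 in control and 956, 1068 and 730 in mdx (-1.27, SE 0.23), and Col11a2 read 2418, 2393 and 2169 in control and 1098, 1288 and 602 in mdx (-1.24, SE 0.30). Acan, the proteoglycan aggrecan, read 2013, 1875 and 778 in control and 315, 477 and 462 in mdx (-1.66, SE 0.49), and Snorc, a proteoglycan of cartilage, differed by -1.11 (SE 0.25). Col9a1 overlapped, with a difference of 0.03.

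The summed bone and cartilage markers ran from 9365 to 13770 in control, while mdx held 2573 to 5133. All 5 tested markers were lower in all mdx arrays, against 7.07% of all probe sets. At day 14 the sum ran from 2641 to 3986 over both genotypes, which overlaps mdx and not control at day 7. The marrow and bone sums were both lower in all mdx arrays at day 7, and mdx replicate 2 was the highest mdx array for both. The control arrays did not keep 1 order, with marrow sums of 23230, 32108 and 30514 and bone sums of 11214, 13770 and 9365. Summed satellite cell and myogenic markers were higher in mdx without overlap, at 10226 to 11293 in control and 12545 to 12997 in mdx. Most of each sum was Myod1 and Myog, the only 2 of the 4 markers on the array whose groups did not overlap. The sums for all other cell types overlapped, muscle fibres, nerve, endothelium and macrophages among them. The part of tissue next to the muscle in these differences was not tested.

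Proteases of the matrix and other white cell genes were lower to a smaller extent. Of 13 tested matrix proteases and inhibitors, 4 were lower in all mdx arrays (30.8%, against 7.07% of all probe sets) and 0 higher, with a median of -0.33. The limit of the filter given for the marrow list holds for this share too, since Mmp9 and Mmp13 passed the filter only with the day 7 control arrays. Ctsk, Mmp13 and Mmp9 are 3 of the 4 and stand in the lists above, and the other was Timp1, an inhibitor of metalloproteinases, at 5645, 4759 and 4243 in control and 2205, 3676 and 3098 in mdx (-0.72, SE 0.38). Of 17 tested macrophage and myeloid genes, 4 were lower in all mdx arrays (23.5%, against 7.07% of all probe sets) and 0 higher, with a median of -0.14. Mpeg1, the pore-forming perforin-2 of macrophages, read 846, 727 and 1020 in control and 547, 370 and 546 in mdx, a log2 difference of -0.76 (SE 0.23). Cyba, a subunit of the phagocyte oxidase, differed by -0.44 (SE 0.15) and Cd68, a lysosomal protein of macrophages, by -0.49 (SE 0.21). The complement genes of resident macrophages C1qa, C1qb and C1qc differed by -0.02, -0.09 and 0.04, and the mannose receptor Mrc1 by 0.08. The marrow markers were also lower in mdx, but mdx replicate 2, their highest mdx array, was the lowest for Mpeg1 and the highest for the other 3 of the 4 separated genes. The part of marrow cells was not tested.

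In the other immune lists 1 gene at most had groups that did not overlap. Igll1, part of the receptor of B cell precursors, read 440, 508 and 660 in control and 238, 132 and 148 in mdx, a log2 difference of -1.36 (SE 0.40). It was the only one of 11 tested lymphocyte genes whose groups did not overlap (9.09%, against 7.07% lower over all probe sets). H2-DMa, which loads class II antigens, was the only one of 11 antigen presentation genes lower in all mdx arrays (9.09%, against 7.07%), at -0.44 (SE 0.20). Among 9 tested chemokines and cytokines 1 was higher in all mdx arrays (11.1%, against 6.75% of all probe sets). This was the interferon-induced Cxcl9, at 447, 433 and 519 in control and 800, 647 and 778 in mdx (0.60, SE 0.38). Of the 33 genes of that list on the array, 24 were too dim to be tested, Ccl2, Tnf and Il6 among them. The interferon response, complement, acute phase, and mast cell and eosinophil lists had medians of 0.09, -0.09, 0.01 and 0.22, over 10, 9, 12 and 4 tested genes. The mast cell protease Cma1 read 3565, 3098 and 3309 in control and 4526, 4011 and 3793 in mdx, a difference of 0.30 (SE 0.17), and a dimmer probe set differed by 0.84 (SE 0.29).

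In the other direction, the leading gene was Per1, a repressor of the circadian clock that glucocorticoids also induce. Per1 read 780, 582 and 481 in control and 1499, 1164 and 1291 in mdx, 1.05 on the log2 scale (SE 0.19, limma adjusted p = 0.243), and the mdx mean was 2.15-fold that of control. The groups were clearly apart, and Per1 was called when arrays were weighted. Of 14 tested clock genes, 4 were higher in all mdx arrays (28.6%, against 6.75% of all probe sets) and 1 lower (7.14%, against 7.07%). The list median was 0.14. Nfil3, a repressor of D-box genes, read 531, 486 and 624 in control and 933, 728 and 1002 in mdx (0.64, SE 0.21). Dbp, an activator of the same D-box genes, read 702, 779 and 665 in control and 656, 591 and 245 in mdx (-0.57, SE 0.32). The clock-controlled ubiquitin protease Usp2 differed by 0.18 (SE 0.15) and the nuclear receptor Nr1d2 by 0.19 (SE 0.27), both with groups that did not overlap. Clock and Arntl, which drive the cycle, differed by 0.15 and 0.16, Per3 by 0.11, Cry1 by -0.07 and Nr1d1 by 0.08. The hour at which tissue was taken is not stated in the labels, and its part in these differences was not tested.

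Immediate early genes, which respond within minutes to stretch, calcium or growth factors, mostly read higher in mdx. Of 20 tested, 17 were above 0 and 3 below (15%, against 48.9% of all probe sets), with a median log2 difference of 0.27. The groups were apart for only 2, both higher (10%, against 6.75%). Nr4a1, an orphan nuclear receptor induced by muscle activity, read 1681, 1049 and 1124 in control and 2417, 4826 and 3034 in mdx (1.34, SE 0.32). Klf4 read 1945, 2275 and 2097 in control and 3052, 2743 and 2649 in mdx (0.41, SE 0.18). Fos, the AP-1 subunit, read 837, 949 and 780 in control and 919, 5177 and 2563 in mdx (1.38, SE 0.46), so mdx replicate 1 lay within the control range. The growth response factor Egr1 and the phosphatase Dusp1 differed by 0.57 (SE 0.27) and 0.47 (SE 0.21), with mdx replicate 2 highest in both. Slc25a25, a calcium-regulated ATP-magnesium carrier of mitochondria that lies outside the list, had the same order of mdx arrays, at 1615, 1423 and 1345 in control and 2412, 5328 and 3172 in mdx (1.21, SE 0.26). The AP-1 subunits Junb and Jund were below 0 with overlapping groups, at -0.37 (SE 0.35) and -0.36 (SE 0.48).

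The heat shock and chaperone list lay on both sides of 0, with a few members higher in all mdx arrays. Hsph1, a nucleotide exchange factor of heat shock protein 70, read 1756, 1873 and 1838 in control and 2857, 2620 and 2482 in mdx, 0.52 on the log2 scale (SE 0.14, limma adjusted p = 0.552). Hspa8, the constitutive heat shock protein 70, read 14986, 15666 and 14276 in control and 18394, 17780 and 21938 in mdx (0.36, SE 0.17). Hspa1b, its inducible relative, read 502, 425 and 433 in control and 617, 843 and 532 in mdx (0.48, SE 0.24). One probe set for Hspa4 read 3580, 3599 and 3485 in control and 4899, 4748 and 5487 in mdx (0.50, SE 0.12), while the 3 other tested probe sets for that gene differed by -0.24 to -0.06, so Hspa4 is uncertain. Of 28 tested genes, 17 were above 0 and 11 below, and the median was 0.06. In all mdx arrays 5 were higher (17.9%, against 6.75% of all probe sets) and 1 lower (3.57%, against 7.07%). The lower one was Pdia4, a disulphide isomerase of the endoplasmic reticulum, at -0.53 (SE 0.23), and the stress-response gene Ddit3 differed by -0.25.

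Among genes of oxidative stress and metal, the metallothioneins read lower in all mdx arrays without passing the test. Mt1 read 3517, 2768 and 2619 in control and 2186, 1909 and 2113 in mdx (-0.50, SE 0.18), and Mt2 read 5960, 7993 and 7366 in control and 5035, 4943 and 4461 in mdx (-0.55, SE 0.18). Both bind zinc and copper and are induced by glucocorticoids and oxidants. Of 31 tested genes of this list, 4 were lower in all mdx arrays (12.9%, against 7.07% of all probe sets) and 3 higher (9.68%, against 6.75%). The median was 0.01, and Hmox1, haem oxygenase, and Sod1, the cytosolic superoxide dismutase, differed by -0.12 and -0.11.

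Energy metabolism lists had medians between 0.01 and 0.17. Of 52 tested oxidative phosphorylation genes, 36 were above 0 and 16 below (30.8%, against 48.9% of all probe sets). In all mdx arrays 6 were higher (11.5%, against 6.75%) and 0 lower. The median of the list was 0.11, and 0.04 without mdx replicate 2. The median log2 deviation of its genes from the mean of the 6 arrays was 0.06, 0.16 and -0.08 in the mdx arrays and between -0.10 and 0 in control, so mdx replicate 3 lay within control. Sdha, the catalytic subunit of succinate dehydrogenase, read 2341, 2754 and 2329 in control and 3134, 3309 and 4215 in mdx (0.50, SE 0.21). Atp5a1, a core subunit of ATP synthase, differed by 0.21 (SE 0.22) and the complex I subunit Ndufs1 by 0.23 (SE 0.16), both apart between the groups. Of 22 tested genes of the tricarboxylic acid cycle, 2 were higher in all mdx arrays (9.09%, against 6.75%) and 0 lower, with a median of 0.17. Cs, citrate synthase, read 21072, 17627 and 18050 in control and 24183, 23029 and 27080 in mdx (0.39, SE 0.14). Of 24 tested glycolysis and glycogen genes, 5 were higher (20.8%, against 6.75%) and 0 lower, with a median of 0.01. The 5 included Phka1 and Phkg1, subunits of phosphorylase kinase, and Pfkl, a phosphofructokinase. The rest were Gyg (0.44, and 0.13 on a second probe set) and Gys1, which prime and build glycogen. Phka1 read 1014, 1107 and 1122 in control and 1377, 1705 and 2115 in mdx (0.63, SE 0.31), and Gys1 12323, 10395 and 12482 in control and 13656, 13479 and 13586 in mdx (0.21, SE 0.14).

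Lipid genes were less even. Thrsp, a nuclear protein that promotes fatty acid synthesis, read 2154, 2692 and 2106 in control and 3451, 4409 and 2957 in mdx (0.61, SE 0.17). Scd1, the stearoyl desaturase, read 2760, 2547 and 2109 in control and 4382, 8302 and 4727 in mdx (1.16, SE 0.60). The fat hormone genes Retn and Adipoq differed by 1.74 (SE 0.80) and 0.76 (SE 0.54), with overlapping groups and mdx replicate 2 highest. Of 18 tested adipocyte genes, 3 were higher in all mdx arrays (16.7%, against 6.75% of all probe sets) and 0 lower, with a median of 0.10. Summed fat markers ran from 5854 to 6272 in control and reached 8579, 11596 and 5631 in the mdx arrays. The part of fat cells in these differences was not tested. Acads, the short-chain acyl-CoA dehydrogenase, differed by 0.49 (SE 0.14) on 1 probe set and by -0.10 (SE 0.19) on another, and fatty acid oxidation genes had a median of 0.03 over 23 tested.

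Some slow fibre genes read lower in mdx, and none passed the test. Of 11 tested slow fibre genes, 4 were lower in all mdx arrays (36.4%, against 7.07% of all probe sets) and 0 higher, with a median of -0.32. Tpm3, slow tropomyosin, read 18628, 19498 and 18810 in control and 12716, 15298 and 13089 in mdx (-0.47, SE 0.16). Tnnc1, slow troponin C, read 13749, 12889 and 13913 in control and 8313, 10205 and 8110 in mdx (-0.61, SE 0.30). Tnni1, slow troponin I, read 26354, 22793 and 26878 in control and 19316, 19429 and 22163 in mdx (-0.32, SE 0.17). Myh7, the slow myosin heavy chain, read 34354, 36004 and 35471 in control and 23200, 27965 and 31047 in mdx (-0.37, SE 0.22). The 4 genes are parts of the same slow sarcomere, and all 3 control arrays lay above mdx in each. The brighter probe set of Tnnt1, slow troponin T, overlapped between the groups at 0.25 (SE 0.26), while its dimmer one was lower in all mdx arrays at -0.30 (SE 0.20).

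Fast fibre genes lay on both sides of 0. Of 15 tested, 1 was higher in all mdx arrays (6.67%, against 6.75% of all probe sets) and 1 lower (6.67%, against 7.07%), with a median of 0.01. The higher one was the light chain gene Mylpf at 0.17 (SE 0.64), with 1.03 (SE 0.61) and overlapping groups on a second probe set. The lower one was the tropomyosin gene Tpm1 at -0.33 (SE 0.21). Several very bright probe sets varied greatly within a group: Atp2a1, the calcium pump of fast fibres, read 5468, 1153 and 21126 in control and 5791, 1259 and 795 in mdx. Its difference of -1.47 had an SE of 1.06, and a second probe set differed by -0.24 (SE 1.27). Creatine kinase of muscle, Ckm, differed by 0.69 (SE 0.28) on its brighter probe set and by -1.55 (SE 0.36) on a dim one, at 386, 364 and 487 in control and 117, 115 and 70.6 in mdx. Mybph, a myosin-binding protein of fast fibres, read 6644, 6084 and 5763 in control and 8093, 10700 and 8399 in mdx (0.54, SE 0.15). Calcium handling genes leaned upward by small amounts, with 19 of 25 above 0, 24% below 0 (against 48.9% of all probe sets) and a median of 0.08. Cacna1s, the voltage sensor of the T-tubule, read 11778, 11375 and 11277 in control and 12692, 12868 and 13456 in mdx (0.18, SE 0.22).

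Developmental isoforms were mixed at day 7. Of 16 tested embryonic and neonatal genes, 2 were higher in all mdx arrays (12.5%, against 6.75% of all probe sets) and 3 lower (18.8%, against 7.07%). The list median was -0.09. Myh3, the embryonic myosin heavy chain that returns in regenerating fibres, read 5964, 5317 and 6987 in control and 4970, 4149 and 4466 in mdx (-0.42, SE 0.16). Ckb, the brain-type creatine kinase, read 7487, 5936 and 6873 in control and 3753, 4712 and 2856 in mdx (-0.85, SE 0.33). Actc1 and Acta2, cardiac and smooth muscle actins, were higher in all mdx arrays, at 0.34 (SE 0.16) and 0.30 (SE 0.14), and a second Actc1 probe set differed by -0.10 (SE 0.57). Among 23 tested myogenic regulators, 3 were higher in all mdx arrays (13%, against 6.75%) and 2 lower (8.7%, against 7.07%). Myod1, which commits cells to muscle, read 4783, 4209 and 4174 in control and 5056, 5450 and 5407 in mdx (0.27, SE 0.16), and Myog, which drives fusion and differentiation, read 4063, 4081 and 4727 in control and 4853, 5747 and 4861 in mdx (0.26, SE 0.22). One probe set for Mef2c differed by -0.18 (SE 0.12), and the 3 others by -0.13, -0.02 and 0.25. Summed satellite cell and myogenic markers were 10226 to 11293 in control against 12545 to 12997 in mdx, without overlap, and most of each sum was Myod1 and Myog. The groups overlapped for Myf5, another of these markers.

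**Figure D3:**
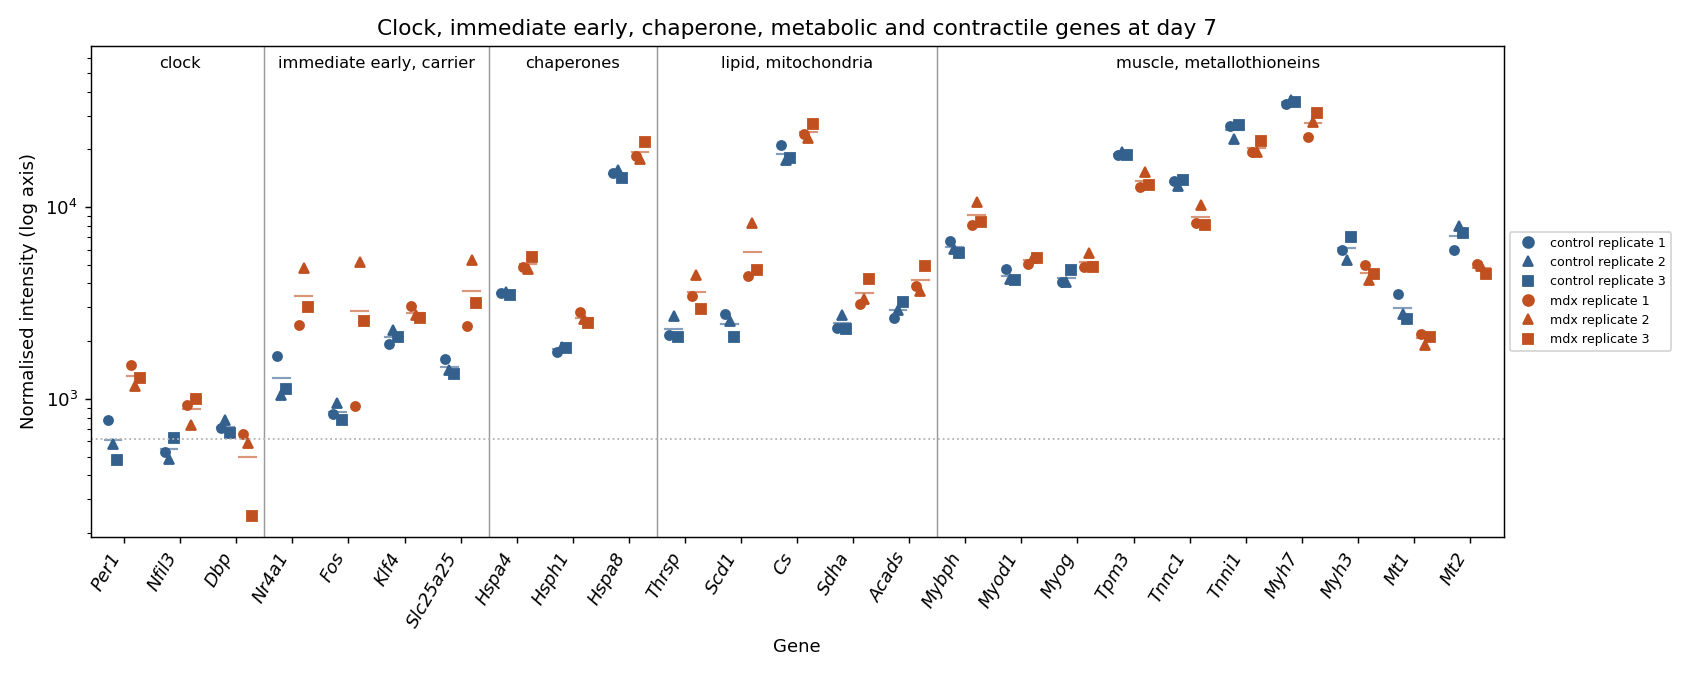
Normalised intensity, on a log axis, of clock, immediate early, chaperone, lipid and mitochondrial, and contractile genes in the 3 control (blue) and 3 mdx (orange) arrays at day 7. Symbols mark the replicate number, short lines the group means, and the dotted line the filter level of 621. Per1 and Hsph1 are higher in all mdx arrays, Tpm3 and Tnnc1 lower in all, and Fos overlaps through mdx replicate 1, at 919.

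Cell cycle genes leaned lower in mdx. Of 33 tested cell cycle genes, 27 were below 0 (81.8%, against 48.9% of all probe sets). In all mdx arrays 9 were lower (27.3%, against 7.07%) and 0 higher, and the median was -0.16. Cdk4, the kinase of the start of the cycle, read 7340, 6379 and 6956 in control and 5766, 6012 and 3342 in mdx (-0.49, SE 0.21), and its dimmer probe set differed by 0.40 (SE 0.26). Rrm2, the regulated subunit of ribonucleotide reductase, read 1750, 1421 and 1471 in control and 1281, 1206 and 994 in mdx (-0.40, SE 0.21). The replication helicase gene Mcm7 differed by -0.40 (SE 0.22) and Cdc20, an activator of mitotic exit, by -0.27 (SE 0.16). Cdkn1a, the inhibitor p21, was lower as well, at 2417, 2212 and 1705 in control and 1465, 1570 and 1560 in mdx (-0.43, SE 0.23). Dividing marrow cells also express these genes, and the marrow markers were lower in mdx too. Mdx replicate 2, the highest mdx array for the marrow markers, was the highest for 3 of these 9 cell cycle genes. The part of marrow cells was not tested. Of 15 tested imprinted growth genes, 13 were above 0 and 2 below (13.3%, against 48.9%), with a median of 0.20. In all mdx arrays 2 of these were higher (13.3%, against 6.75% of all probe sets) and 0 lower. The higher ones were Grb10, an adaptor that restrains insulin signalling, and the amino acid carrier gene Slc38a4. Grb10 differed by 0.83 (SE 0.66) and, on a second probe set, 0.50 (SE 0.32), and Slc38a4 by 0.17 (SE 0.15). Gadd45b, a growth arrest gene, read 757, 1042 and 928 in control and 305, 362 and 320 in mdx on 1 probe set (-1.30, SE 0.29), and differed by -0.48 (SE 0.36) on the other.

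Extracellular matrix genes were spread about 0, with 1 clear exception. Tnc, the matrix protein tenascin C of tendon, bone surfaces and healing tissue, read 3049, 3369 and 3803 in control and 1992, 1933 and 1386 in mdx, -0.93 on the log2 scale (SE 0.18, limma adjusted p = 0.243), and a second probe set differed by -0.98 (SE 0.33). Of 30 tested matrix genes, 3 were lower in all mdx arrays (10%, against 7.07% of all probe sets) and 0 higher, with a median of 0.05. The others were Mgp, matrix Gla protein, at -0.47 (SE 0.19), and Thbs2, thrombospondin 2, at -0.36 (SE 0.16). The fibril collagens Col1a1, Col1a2 and Col3a1 differed by 0.16, 0.08 and -0.05 on their brightest probe sets, with an SE of 1.19 for Col1a1, and the basement membrane chain Col4a2 by 0.58 (SE 0.19). Of 19 tested genes of the TGF-beta and BMP pathway 0 separated the groups, and Tgfb1 itself read 1375, 1025 and 575 in control and 741, 485 and 217 in mdx (-1.01, SE 0.47). Tenascin C and Mgp are also made in bone and cartilage, whose markers were also lower in mdx, and that part was not tested.

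Erdr1, a stress-regulated gene of the pseudoautosomal region, read 19996, 26595 and 15313 in control and 6741, 3532 and 8938 in mdx (-1.74, SE 0.34) and was one of few genes with a wide difference outside the marrow and bone lists. Its second probe set differed by -0.05 (SE 0.21), so the gene is uncertain. Among the genes with the smallest p above control, F2rl2, a thrombin-type receptor, at 69.3, 94.9 and 197 in control and 343, 566 and 345 in mdx (1.43, SE 0.35), and Lrp5, a Wnt co-receptor, at 152, 106 and 177 in control and 779, 342 and 649 in mdx (1.60, SE 0.43), were dim. Also among those genes were Sec62 (0.86, SE 0.24), Yju2 (0.68, SE 0.18), Dhx15 (0.56, SE 0.16) and Mrpl9 (0.48, SE 0.14). Other probe sets for Sec62 differed by 0.24 (SE 0.48) and 0.05 (SE 0.29). Epas1, a hypoxia-inducible factor, read 841, 653 and 833 in control and 1140, 1374 and 1159 in mdx (0.62, SE 0.18), and Bnip3, a mitophagy receptor induced by hypoxia, read 1059, 1441 and 1010 in control and 1590, 1727 and 1668 in mdx (0.50, SE 0.15). Vegfa, the endothelial growth factor, read 1457, 1323 and 1458 in control and 1761, 2121 and 1779 in mdx (0.40, SE 0.28), and its receptor gene Kdr differed by 0.23 (SE 0.16). Over 14 tested endothelial genes, 3 were higher in all mdx arrays (21.4%, against 6.75% of all probe sets) and 2 lower (14.3%, against 7.07%). The list median was -0.03.

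The remaining lists had medians between -0.14 and 0.13. Costamere genes had a median of -0.14 over 19 tested. In all mdx arrays 2 were lower (10.5%, against 7.07% of all probe sets) and 1 higher (5.26%, against 6.75%). The lower ones were the integrin-linked kinase gene Ilk at -0.27 (SE 0.17) and the laminin chain gene Lamc1 at -0.35 (SE 0.24). Sarcomere and Z disc genes had a median of 0.02 over 20 tested, neuromuscular junction genes 0.03 over 13, nerve and Schwann cell genes 0.13 over 10 and epidermis genes 0.02 over 9. The insulin-like growth factor pathway had a median of -0.09 over 13 tested, with Akt1, a kinase of that pathway, at -0.19 (SE 0.12). Medians were 0.01 for creatine and nucleotide energy genes over 11 tested, 0.03 for proteolysis and atrophy genes over 21, 0.00 for proteasome genes over 30, -0.01 for cell cycle inhibitors and p53 targets over 15 and 0.00 for ribosomal protein genes over 21.

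The effect of mdx at day 7 was set against that at day 14, and the test of the difference between the ages called 1 of 7140 probe sets (0.0140%). That was Snx17, a sorting nexin of endosomes. At day 7 Snx17 read 2133, 1747 and 2061 in control and 1886, 1904 and 1646 in mdx, a log2 difference of -0.12 (SE 0.17), so the call came from day 14, where the difference was 2.05. The difference between the ages was -2.17 (SE 0.24, limma adjusted p = 0.00618), and 0 probe sets were called without day 7 control replicate 1. The next smallest p-values belonged to Myh3, with differences of -0.42 at day 7 and 1.00 at day 14 (limma adjusted p = 0.0980 for the difference), Mt1, with -0.50 and 0.97 (0.104), and 1 probe set for Gadd45b, with -1.30 and 1.10 (0.104). The other Gadd45b probe set had -0.48 at day 7 and -0.12 at day 14 (limma adjusted p = 0.819 for the difference). Of the wide differences at day 7, Ngp had -0.07 at day 14, S100a8 -0.17, Slc4a1 -0.25, Ibsp 0.24 and Tnc 0.25, and the test of the difference between the ages was not passed by any of these 5. Their limma adjusted p-values were 0.350, 0.427, 0.343, 0.343 and 0.260. Erdr1, on the same probe set, was low at both ages, at -1.74 and -2.22. Klf1 and Ckb were also lower in all mdx arrays at both ages, Klf1 at -0.92 at each age and Ckb at -0.85 and -0.96. Per1 differed by 1.05 and 0.28 (limma adjusted p = 0.456 for the difference). The neutrophil and marrow list had a median of -0.12 at day 14 and the bone and cartilage list of -0.34, against 0.05 over all probe sets tested.

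**Figure D4:**
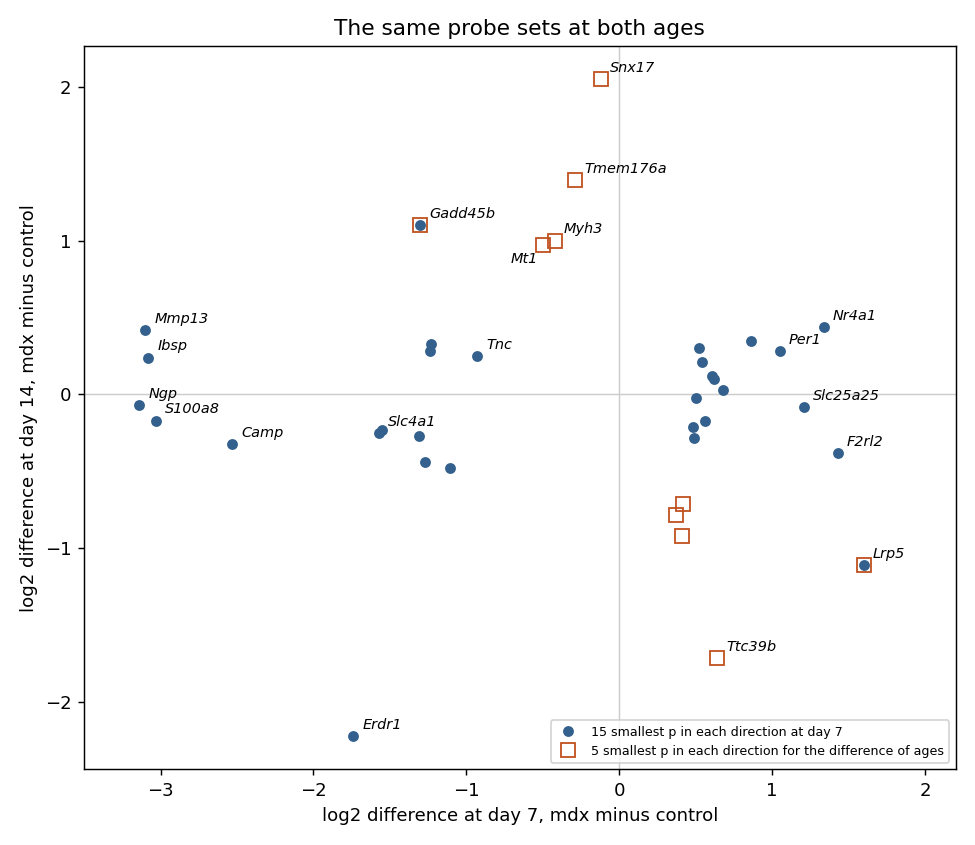
The log2 difference between mdx and control at day 7 (horizontal) and day 14 (vertical) for the 15 genes with the smallest p in each direction at day 7 (blue) and the 5 in each direction with the smallest p for the difference of ages (orange squares). Snx17 lies near 0 at day 7 and at 2.05 at day 14, Ngp at -3.14 and -0.07, and Erdr1 at -1.74 and -2.22.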

How the data were processed

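Total RNA of leg muscle was measured on Affymetrix MG-U74Av2 arrays, 1 per sample. The authors deposited 1 linear intensity per probe set and array; per the labels they followed the maker's standard protocol, and no software for the probe summary is named. On each array the mean after trimming 2% from each end was near 1500, so the deposited intensities had been scaled to a common target. Here 66 control probe sets were left out, 13 arrays were quantile-normalised over 12422 probe sets, 62.06 (10% of the median) was added and log2 taken, so differences of dim genes are understated. The 7140 probe sets above 621, the median, on at least 3 of 12 arrays were tested with limma 3.58.1 in R 4.3.3 (trended variance, 8 residual degrees of freedom, Benjamini-Hochberg over all 7140). Text levels are normalised intensities; differences are mdx minus control on the log2 scale. Symbols came from the platform annotation, with 10833 probe sets holding 1 symbol, 396 several and 1193 none. Gene lists used the brightest probe set of each gene. Genes were picked by rule: every call, the 15 smallest p in each direction among groups that did not overlap, and the tested dystrophin complex. The rule also took 4 genes with the smallest p and 2 brightest of each list, and 5 in each direction for the difference of ages. Not every gene so picked is described. Left out, among others, were Ttc39b, Akap1, Yes1, Abcg1 and Tmem176a for the difference of ages and Adgre1 of the macrophage list. Other genes were named after their values were seen. The groups, lists and rules were chosen with earlier results of these data known. The fit was tested on simulated data. The replicate numbers were checked for pairing: deviations of same-numbered day 7 arrays correlated at 0.06, -0.14 and -0.08, so the numbers were not taken to pair samples. Other settings tried were array weights, a block on replicate number, other thresholds, scalings, filters and pseudocounts, a fit of day 7 alone, no variance trend, and each array left out in turn. Precision is limited by the 3 arrays per group.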

Additional observations from a re-analysis of the deposited data

Results flagged for a closer look

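Snx17 was the 1 probe set for which the mdx effect at day 7 differed from that at day 14 by limma's test of the difference, at -2.17 on the log2 scale (SE 0.24, adjusted p = 0.00618). All 3 mdx arrays were above all 3 control arrays at day 14 and the groups overlapped at day 7. The other Snx17 probe set gave 0.05 (SE 0.40) at day 7 and -0.44 at day 14. Groups of 3 arrays are too small for the search for single outlying arrays, which was not made.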

How the results depend on the processing

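The count of 0 probe sets called at day 7 was also 0 under every setting except array weights, with 20, and leaving out 1 array gave 0 to 12, the 12 without mdx replicate 2. The count of 1 for the difference between the ages was 2 with no variance trend, 2 at a threshold of 0.10 and 0 with the replicate block, and 0 to 14 leaving out 1 array. The replicate numbers were not taken to pair the samples, though the few correlations between same-numbered arrays cannot settle it. With the replicate block 0 probe sets were called at day 7 (smallest limma adjusted p 0.0502). Dmd stayed below 0 and uncalled, at -0.64 to -0.27. Of 246 named probe sets, 56 changed sign under at least 1 alternative; of the 65 with a difference of at least 0.5 in size, 1 did. The medians of the marrow and bone lists stayed below 0, at -3.08 to -0.83 and -1.44 to -0.74, and 26 of 43 list medians changed sign at least once, mostly those near 0. The causes were not tested.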
